A study of Mus musculus with 32 samples.

Results

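Solute carriers are the membrane proteins, other than ATP-driven pumps and channels, that move amino acids, sugars, ions, metals, vitamins and metabolites across the plasma membrane and the membranes of organelles. The solute carrier genes described here are every gene whose symbol begins with Slc and a digit in 4 lists of genes that differed between control mice and mice with Bcl6 deleted in adipocytes, without Slc25a20, Slc27a1 and Slc27a2. They number 74 of the 2508 genes listed in all, and belong to 30 numbered families. Slc9a3r1 carries the Slc prefix but encodes a scaffold protein that binds transporters.

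Poly(A) RNA was sequenced from C57BL/6 mice to find genes that BCL6, a zinc-finger transcriptional repressor, regulates in adipocytes. All mice carried loxP-flanked Bcl6 alleles (Bcl6 fl/fl); those termed WT had no Cre, and those termed AKO also had Cre driven by the adiponectin promoter, which is active in adipocytes. The 32 samples form 8 groups of 4, WT and AKO in each of male inguinal (subcutaneous) fat, female inguinal fat, male perigonadal (visceral) fat and male liver. The labels give no age and no group with Cre alone, so the Bcl6 deletion and the Cre transgene cannot be told apart. By their animal numbers the male inguinal and perigonadal samples came from the same mice, the livers from other mice, and the male and female inguinal mice from separate number ranges, so that sex and set cannot be told apart. In whole fat pads, fewer cells of a type and less RNA per cell of that type cannot be told apart.

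The 4 deposited tables hold only genes that the authors called different at an adjusted p under 0.05, so a gene's place in a table was itself set by that comparison, and a gene that is absent may have been unchanged, too low or untested. Slc2a4, the insulin-responsive glucose transporter of adipocytes, was in none of them. Counts per library were used for inguinal fat and liver, and the authors' deposited table of comparisons alone for perigonadal fat. Counts in listed genes ran from 592820 to 2603509 per male inguinal library, 864592 to 4072659 per female inguinal library and 97314 to 358660 per liver library, which is part of each library and not its depth. A normalized count is a read count divided by the library's size factor, the authors' scaling for depth, and values are given in the order of the replicate numbers. Size factors were higher in every female AKO library (1.15 to 1.59) than in every female WT library (0.402 to 1.02), overlapped in males (0.373 to 1.16 in WT, 0.76 to 1.74 in AKO), and their part in the results was not tested. Bcl6 was listed only in females, at 1442, 1176, 988 and 1004 normalized counts in WT and 2618, 2295, 2800 and 2555 in AKO, and counts over the whole gene do not show whether the flanked exons were removed. Adipoq, an adipocyte marker, stood at 45320 to 50391 normalized counts in female WT and 61301 to 74578 in female AKO libraries, while none of 7 hepatocyte markers was listed in liver, so the liver label was not checked.

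Amino acid carriers such as SLC7A10 work as pairs with the heavy chain SLC3A2, which brings them to the cell surface, and facilitative carriers such as the glucose transporter family let solutes run down their gradients. Carriers of families 5 and 6 are driven by the sodium gradient, families 15 and 36 by protons, and most of family 25 exchange metabolites across the inner mitochondrial membrane. In fat, Slc7a10 is known as a surface marker of white adipocytes and Slc36a2 as a marker of brown and beige adipocytes.

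**Figure D1:**
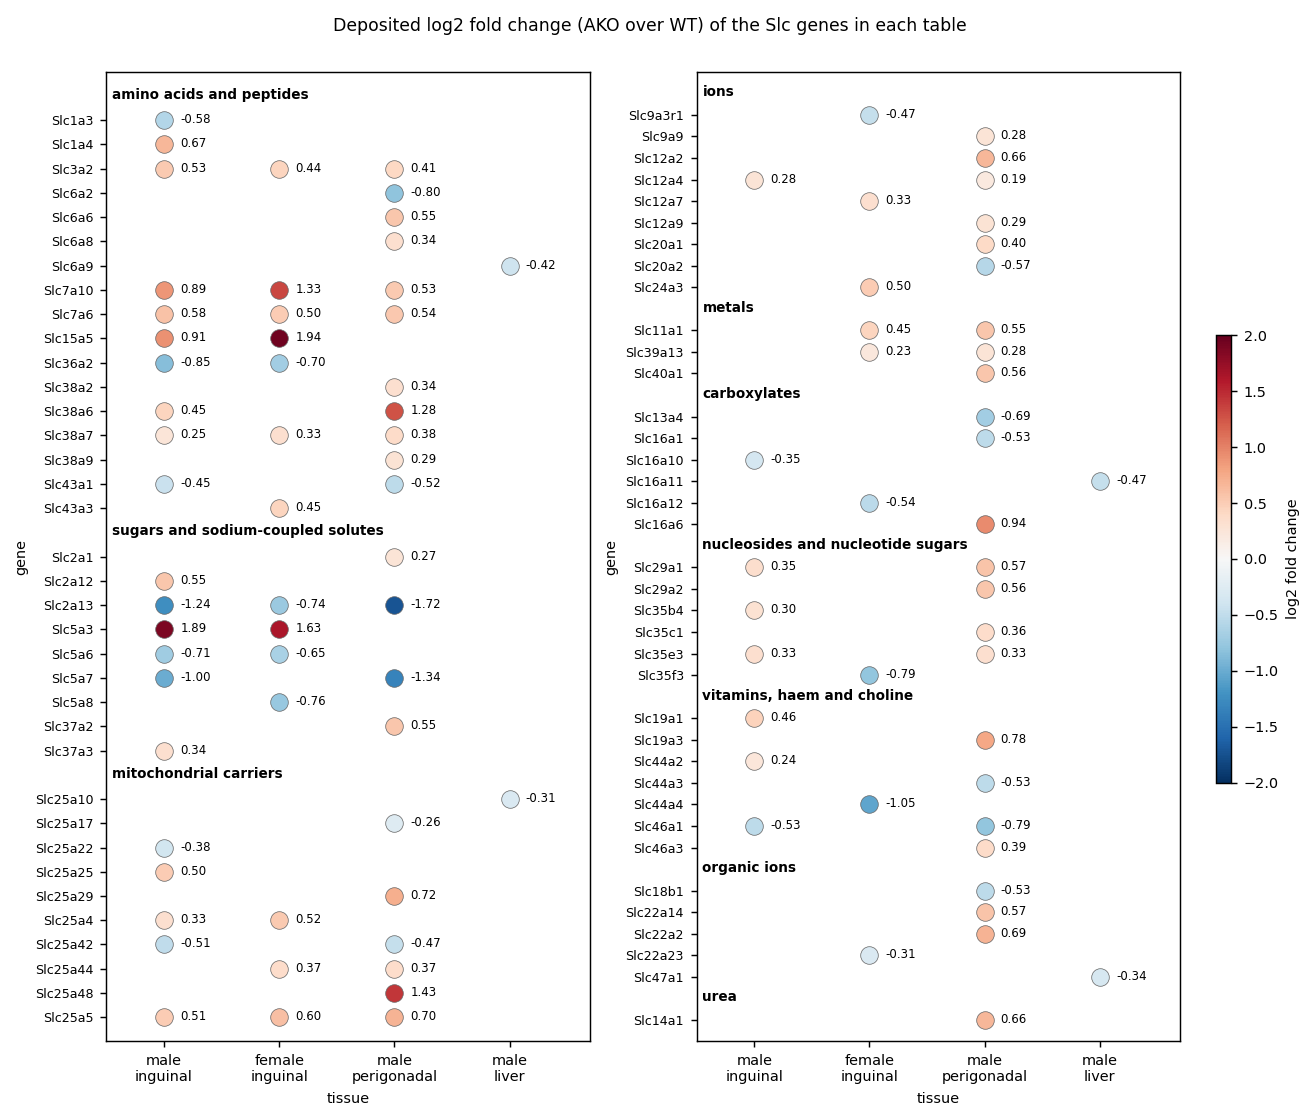
Log2 fold change of AKO over WT in the authors' deposited tables for 73 of the 74 genes (vertical axis, grouped by class of family) in the 4 tissues (horizontal axis); red circles are higher and blue circles lower in AKO, with the value beside each, and no circle means that the gene was not listed. The 22 genes drawn with more than 1 circle keep one colour along their line.

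Male inguinal fat had 30 of these genes in its table (19 higher in AKO, 11 lower), where the authors had called 8.56% of the genes tested (4.54% higher, 4.01% lower). Female inguinal fat had 24 (14 higher, 10 lower), where 5.83% were called (3.2% and 2.63%). Perigonadal fat had 46 (33 higher, 13 lower), where 11.1% were called (5.68% and 5.46%). Liver had 4, all lower, where 0.323% were called (0.0787% higher, 0.245% lower). Of the 368 protein-coding genes named Slc and a digit in the annotation, 8.15%, 6.52%, 12.5% and 1.09% were members listed in these tables, though how many the authors tested was not known. Among listed genes, 63.3% of the members and 53.1% of all genes were higher in AKO in male inguinal fat, 58.3% and 54.9% in female inguinal fat, and 71.7% and 51% in perigonadal fat. The median log2 fold of the members in the authors' deposited tables was 0.31, 0.33, 0.36 and -0.38 in the 4 tissues in that order, beside 0.23, 0.30, 0.21 and -0.42 for all listed genes.

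The genes were grouped by numbered family, so that a class is named for its families and not for what each gene carries. Over the 3 adipose tables the amino acid and peptide families held 16 genes (12 higher and 4 lower), among them the heavy chain Slc3a2 and the carriers of noradrenaline (Slc6a2), creatine (Slc6a8) and nucleobases (Slc43a3). The mitochondrial family held 9 (6 higher and 3 lower), the sugar and sodium-coupled families 9 (5 and 4), and the ion families 10 (7 and 3), with the scaffold gene Slc9a3r1 counted among the lower ones. The vitamin, haem and choline families held 7 (4 higher and 3 lower), the nucleoside and nucleotide sugar families 6 (5 and 1), and the organic ion families 4 (2 and 2). Families 13 and 16, classed as carboxylate carriers, held 5 (1 higher and 4 lower), of which Slc13a4 carries sulfate and Slc16a10 aromatic amino acids. The metal families held 3 and the urea family 1, all higher. Each of the 23 genes listed in at least 2 adipose tables had one direction in all of them, 15 higher and 8 lower. The authors' thresholds decided which genes these are, and the male inguinal and perigonadal samples share mice. This agreement was not set beside that of all genes listed in at least 2 adipose tables. It is therefore not read as a trait of solute carriers.

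For the genes with counts, WT and AKO were compared again with edgeR's quasi-likelihood test, adjusted over the number of genes the authors tested. By edgeR, 20 of the 30 male inguinal genes were called (11 higher and 9 lower), beside 60.6% of all 1074 genes listed there, the only ones edgeR could test. In females edgeR called 13 of 24 (7 higher and 6 lower), beside 41.3% of all 790 genes listed. As shares of all genes the authors tested, these edgeR calls were 5.19% in males (2.92% higher, 2.27% lower) and 2.41% in females (1.56% and 0.849%). Unlisted genes, which edgeR could not test, count there as not called. Nothing is read from the members' counts against these shares. The female split moved with the scaling: 5 of 12 calls were higher with TMM scaling and 3 of 12 when the table's total served as library size. The latter moved the median log2 fold of all listed female genes by -0.21. Both scalings were computed from the listed genes alone, all called different by the authors. They therefore do not show how the calls would move with a scaling over all genes. WT and AKO libraries did not overlap for 27 of 30 male genes and 21 of 24 female genes, where 90.8% and 89.1% of all listed genes did not overlap. In what follows, a fold is that of edgeR unless credited to the authors' deposited table, whose folds lie nearer to 0 for low counts (0.91 for Slc15a5 in males, where edgeR gave 1.98).

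Promoter sequences are shown for Slc7a10 and Slc2a13, a gene higher and a gene lower in AKO in all 3 adipose tables, and for Slc1a3 and Slc35b4, whose windows hold the letters TTCNNNGAA, the core shared by the sites that BCL6 and STAT5 are known to bind. The letters read the same on both strands. Each sequence is the 250 bases before the RefSeq transcript start on GRCm38.p6, printed 5′ to 3′ on the gene's strand, with matches in capitals.
Slc7a10, chr7:35186135-35186384, plus strand: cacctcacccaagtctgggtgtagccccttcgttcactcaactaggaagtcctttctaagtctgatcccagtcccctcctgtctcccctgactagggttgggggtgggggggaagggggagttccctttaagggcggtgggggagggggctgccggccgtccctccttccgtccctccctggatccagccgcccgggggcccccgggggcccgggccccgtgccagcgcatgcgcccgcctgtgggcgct
Slc2a13, chr15:91573262-91573511, minus strand: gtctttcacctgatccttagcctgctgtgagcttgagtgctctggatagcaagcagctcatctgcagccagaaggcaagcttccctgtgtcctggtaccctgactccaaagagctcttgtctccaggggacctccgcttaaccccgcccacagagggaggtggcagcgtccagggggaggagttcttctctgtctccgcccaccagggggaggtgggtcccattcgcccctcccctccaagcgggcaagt
Slc1a3, chr15:8710808-8711057, minus strand: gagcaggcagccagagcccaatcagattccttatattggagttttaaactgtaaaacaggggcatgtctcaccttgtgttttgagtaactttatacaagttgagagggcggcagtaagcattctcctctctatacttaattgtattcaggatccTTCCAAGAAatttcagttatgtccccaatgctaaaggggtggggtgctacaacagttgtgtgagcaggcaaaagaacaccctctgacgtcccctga
Slc35b4, chr6:34177055-34177304, minus strand: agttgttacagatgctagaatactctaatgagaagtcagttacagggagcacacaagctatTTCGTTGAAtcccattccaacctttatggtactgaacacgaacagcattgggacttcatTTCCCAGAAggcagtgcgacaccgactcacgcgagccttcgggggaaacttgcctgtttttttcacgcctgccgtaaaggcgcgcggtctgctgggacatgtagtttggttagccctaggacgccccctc
In Slc1a3 the match began at position -96 from the transcript start, and in Slc35b4 matches began at -189 and -130. RefSeq windows of 300 bases (250 before and 50 after the start) were found for 61 of the 74 genes, 84 windows in all, and 4.76% of them held a match, beside 8.3% of all 32851 windows. None of the 7 windows of the genes listed in all 3 adipose tables (6 genes matched) held one, and the other matches were in Slc38a9 and Slc46a3, at -76 and -238. A match is a string of letters and not a site shown to be bound.

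Slc7a10 and Slc7a6, whose products are amino acid carriers that pair with SLC3A2, were listed as higher in AKO in every fat depot. Slc7a10 (ENSMUSG00000030495.12; chromosome 7, 35186385 to 35201114, plus strand, GRCm38, as for all gene positions here) encodes ASC-1, a carrier of small neutral amino acids such as serine, alanine and glycine, and its promoter is the first sequence printed above. In males it had 3484, 2975, 3889 and 3099 normalized counts in WT and 6995, 5689, 5917 and 6917 in AKO, 4 libraries each. Every AKO library lay above every WT library, and Slc7a10 rose by a log2 fold of 0.92 ± 0.10 (SE, edgeR adjusted p = 0.000732), or 1.9-fold. In females the counts were 3314, 2819, 3291 and 3122 in WT and 7774, 8060, 9243 and 7312 in AKO. The groups again did not overlap, and the rise was 1.37 ± 0.09 (SE, edgeR adjusted p = 3.8e-05), or 2.58-fold. In perigonadal fat the authors' deposited table gave Slc7a10 a rise of 0.53 ± 0.09 (SE, adjusted p = 7.11e-08). The gene overlaps Lrp3 on the other strand, which the authors' deposited tables list as lower in all 3 adipose comparisons (log2 fold -1.33, -0.77 and -0.72), and whether reads were counted by strand is not given in the sources used here. Of the other adipocyte markers, Pnpla2 and Plin1 were listed as lower in males (summed normalized counts of 53345 to 71124 in WT and 38269 to 47206 in AKO), Adipoq and Lpl as higher in females (157116 to 197014 in WT and 235087 to 250218 in AKO), and Pnpla2, Cidec and Lipe as lower in perigonadal fat (log2 fold -0.68, -0.55 and -0.37 in the authors' deposited table). Their part in the Slc7a10 results was not tested.

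Slc3a2 (ENSMUSG00000010095.13; chromosome 19, 8706882 to 8723369, minus strand) encodes CD98hc, the heavy chain that carries SLC7A10 and SLC7A6 to the plasma membrane. Male libraries held 1570, 1861, 1669 and 1701 normalized counts in WT and 2684, 2450, 2437 and 2337 in AKO. There was no overlap, and Slc3a2 rose by 0.54 ± 0.07 (SE, edgeR adjusted p = 0.00139) on the log2 scale. Female libraries held 2876, 3250, 3351 and 2912 in WT and 4094, 3403, 4928 and 4647 in AKO. The lowest AKO library was just above the highest WT library, and the log2 fold of 0.46 ± 0.11 (SE, edgeR adjusted p = 0.0696) did not pass the threshold. In the authors' deposited table for perigonadal fat Slc3a2 was higher by 0.41 ± 0.10 (SE, adjusted p = 0.00102).

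Slc7a6 (ENSMUSG00000031904.5; chromosome 8, 106168857 to 106198706, plus strand) encodes y+LAT2, which exchanges cationic for neutral amino acids when bound to SLC3A2. Its normalized counts in males were 577, 517, 447 and 503 in WT and 888, 735, 803 and 660 in AKO, and it rose by 0.61 ± 0.10 (SE, edgeR adjusted p = 0.00718). In females they were 747, 953, 857 and 1065 in WT and 1284, 1364, 1238 and 1341 in AKO, and it rose by 0.52 ± 0.11 (SE, edgeR adjusted p = 0.0299), a call that was lost with TMM scaling (edgeR adjusted p = 0.0594). No AKO library of either set fell within the WT range. The authors' deposited table for perigonadal fat gave a rise of 0.54 ± 0.10 (SE, adjusted p = 7.57e-06). Thus Slc7a10, Slc7a6 and the heavy chain Slc3a2 were listed as higher in all 3 adipose tables. Of the 16 annotated genes of family 7, only 2, Slc7a10 and Slc7a6, were listed in any tissue.

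The 4 listed members of family 38, sodium-coupled carriers of neutral amino acids, were also higher wherever they were listed. Slc38a6 (chromosome 12, 73286779 to 73354049, plus strand) encodes SNAT6, a carrier of glutamine and glutamate. It had 352, 437, 406 and 342 normalized counts in male inguinal WT libraries and 526, 589, 516 and 505 in AKO libraries. The groups did not overlap, and it rose by 0.47 ± 0.09 (SE, edgeR adjusted p = 0.015). In perigonadal fat the rise was larger in the authors' deposited table, 1.28 ± 0.07 (SE, adjusted p = 8.9e-68), with the lowest adjusted p of the 46 solute carrier genes listed there, and the difference between depots was not tested.

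Slc38a7 encodes a carrier that exports glutamine from lysosomes. It had 376, 411, 392 and 351 normalized counts in male WT and 447, 451, 471 and 463 in male AKO libraries, and 682, 668, 608 and 661 in female WT and 826, 890, 807 and 771 in female AKO libraries. In both sets every AKO library was above every WT library. The log2 folds were 0.26 ± 0.07 (SE, edgeR adjusted p = 0.0574) in males and 0.33 ± 0.08 (SE, edgeR adjusted p = 0.078) in females, neither past the threshold, while the authors' deposited table for perigonadal fat gave a rise of 0.38 ± 0.09 (SE, adjusted p = 0.000317). Perigonadal fat also listed Slc38a2, a widely expressed importer of small neutral amino acids, and Slc38a9, the lysosomal arginine sensor upstream of mTORC1, as higher by 0.34 ± 0.10 (SE, adjusted p = 0.00682) and 0.29 ± 0.09 (SE, adjusted p = 0.00982) in the authors' deposited table.

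The proton-coupled carriers of amino acids and peptides went in opposite directions. Slc36a2 (chromosome 11, 55158470 to 55185077, minus strand) encodes PAT2, a proton-coupled importer of glycine, alanine and proline. Its male normalized counts were 5036, 5668, 4560 and 5402 in WT and 2893, 2274, 2539 and 3404 in AKO, and it fell, with a log2 fold change of -0.90 ± 0.12 (SE, edgeR adjusted p = 0.00202). Its female counts were 9195, 7483, 9798 and 7424 in WT and 4867, 4122, 6105 and 5065 in AKO, with a log2 fold change of -0.75 ± 0.13 (SE, edgeR adjusted p = 0.0152). In both sets all AKO libraries were below all WT libraries, and Slc36a2 was not listed in perigonadal fat. Of the other 7 brown or beige adipocyte markers, Kcnk3 was listed in males (1029 to 1377 normalized counts in WT, 725 to 902 in AKO) and Ppargc1a in females (242 to 356 in WT, 328 to 645 in AKO). In perigonadal fat the authors' deposited table listed Cox8b and Cidea as lower (log2 fold -1.62 and -1.60) and Ppargc1a as higher (0.47). The part of these markers in the Slc36a2 result was not tested.

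Slc15a5 (chromosome 6, 137983586 to 138079916, minus strand) belongs by sequence to the proton-coupled peptide carrier family, and its substrates are not well known. Female libraries had 42.3, 28.4, 36.7 and 21.6 normalized counts in WT and 138, 148, 228 and 164 in AKO. The lowest AKO library was over 3 times the highest WT library, and the gene rose by 2.45 ± 0.25 (SE, edgeR adjusted p = 0.000673), the largest edgeR fold among the 24 female genes. In males it was near the limit of detection, with 16.1, 0, 13.8 and 8.85 in WT and 40.5, 21.2, 61.9 and 27.2 in AKO, or 30 reads in all of WT and 184 in all of AKO. The male log2 fold was 1.98 ± 0.57 (SE, edgeR adjusted p = 0.0793, and 0.0248 with the replicate block). The replicate block is a term that pairs same-numbered samples.

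Other amino acid carriers changed in one depot or moved down. Slc1a3 (chromosome 15, 8634124 to 8710764, minus strand; promoter above) encodes GLAST, a sodium-driven importer of glutamate and aspartate. It had 4972, 4707, 5033 and 5395 normalized counts in male WT libraries and 3340, 3248, 2770 and 3921 in AKO libraries, and fell, with a log2 fold change of -0.60 ± 0.10 (SE, edgeR adjusted p = 0.00645) with no overlap. Its relative Slc1a4, which encodes ASCT1, an exchanger of serine and other small neutral amino acids, went from 45.6, 40.4, 39.7 and 47.6 in WT to 70.5, 78, 77.6 and 60.1 in AKO. It rose by 0.73 ± 0.15 (SE, edgeR adjusted p = 0.0224). Neither was listed in females or in perigonadal fat.

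Slc43a1, which encodes LAT3, a carrier of branched-chain and other large neutral amino acids, had 1227, 1119, 1402 and 1430 normalized counts in male WT and 990, 751, 963 and 1035 in male AKO libraries. It fell, with a log2 fold change of -0.47 ± 0.11 (SE, edgeR adjusted p = 0.0348), and the authors' deposited table for perigonadal fat gave -0.52 ± 0.17 (SE, adjusted p = 0.0211). Slc43a3, which carries purine nucleobases, was listed in females alone, at 1374 to 1678 normalized counts in WT and 1691 to 2566 in AKO, with a log2 fold of 0.48 ± 0.12 (SE, edgeR adjusted p = 0.0817). Family 6 carriers appeared in perigonadal fat, where the authors' deposited table listed the taurine carrier Slc6a6 (0.55 ± 0.16) and the creatine carrier Slc6a8 (0.34 ± 0.10) as higher. The noradrenaline carrier Slc6a2, at a mean of only 14.01 normalized counts, was lower, at -0.80 ± 0.29 (SE, adjusted p = 0.0499) in the authors' deposited table. Of the amino acid and peptide families, edgeR called 8 of the 10 genes of male inguinal fat (5 higher and 3 lower) and 4 of the 7 of female inguinal fat (3 and 1), beside 60.6% and 41.3% of all genes listed in these tables.

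**Figure D2:**
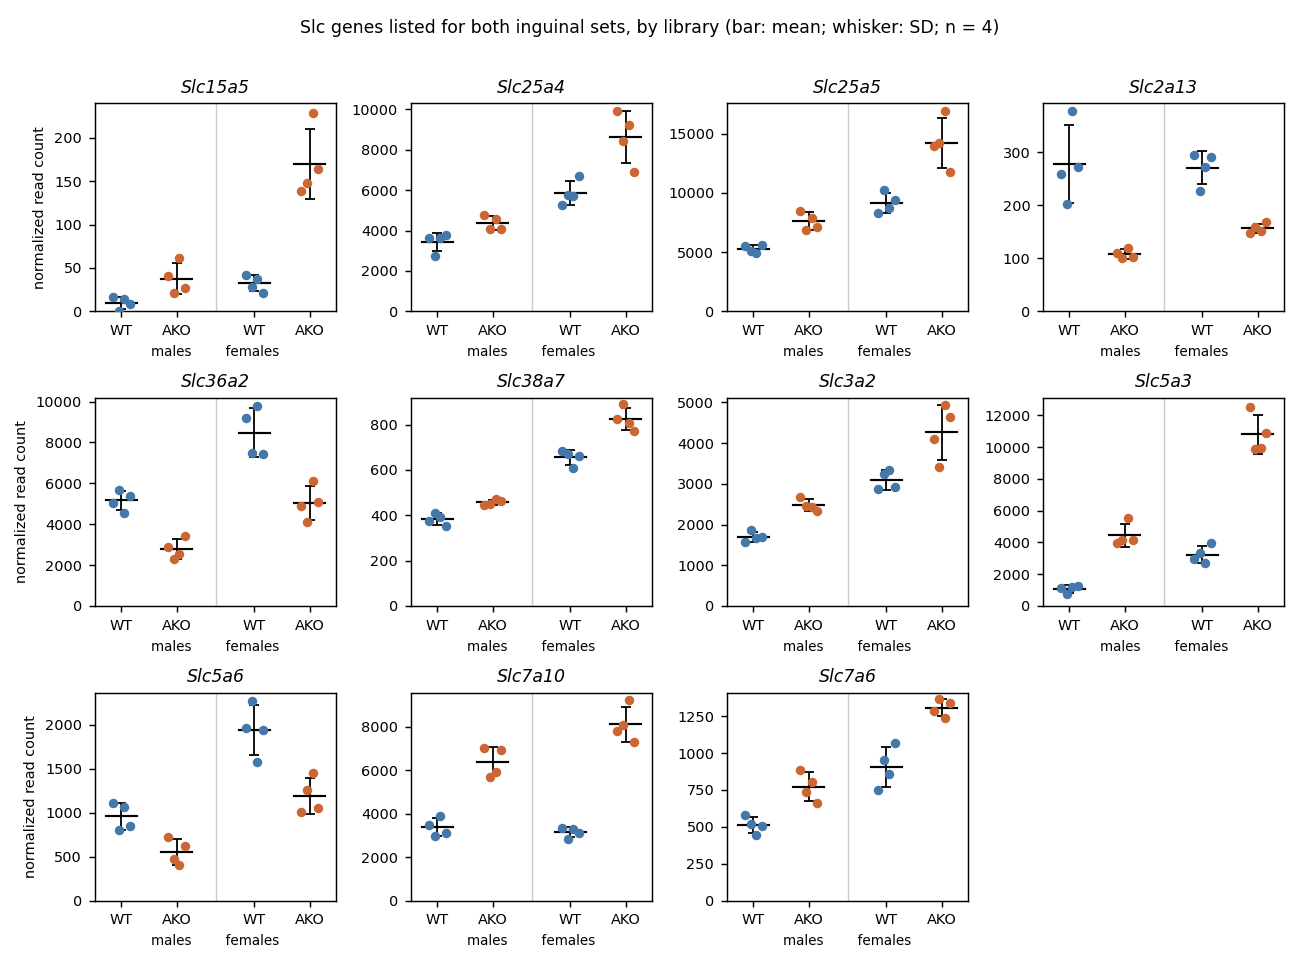
Normalized read count (vertical axis, from 0) of 11 of the 12 solute carrier genes listed for both inguinal sets, in each WT (blue) and AKO (orange) library of males and females; horizontal bars are means and whiskers the SD over 4 libraries. WT and AKO points do not overlap within a set in any of the 11 panels, with 8 genes higher and 3 lower in AKO in both sets.

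Carriers of myo-inositol, a sugar alcohol that cells use as an osmolyte and for phosphoinositide lipids, moved in opposite directions. Slc5a3 (ENSMUSG00000089774.2; chromosome 16, 92058322 to 92087473, plus strand) encodes SMIT1, which imports myo-inositol with sodium. Male libraries had 1101, 746, 1203 and 1259 normalized counts in WT and 3985, 4131, 5516 and 4168 in AKO. Every AKO library was more than 3 times the highest WT library, and Slc5a3 rose by 2.05 ± 0.16 (SE, edgeR adjusted p = 6.3e-05), or 4.13-fold. Female libraries had 2970, 3335, 2682 and 3958 in WT and 12509, 9876, 9974 and 10900 in AKO, again without overlap. The female rise was 1.74 ± 0.13 (SE, edgeR adjusted p = 5.18e-05), or 3.34-fold. The gene lies within the locus of Mrps6 on the same strand, and Mrps6 was higher too (634 to 1092 normalized counts in male WT, 1841 to 2565 in male AKO, 1449 to 2123 in female WT and 3293 to 4741 in female AKO), so shared reads cannot be told apart. Slc5a3 was not listed in perigonadal fat.

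Slc2a13 (ENSMUSG00000036298.10; chromosome 15, 91267696 to 91573261, minus strand; promoter above) encodes HMIT, the proton-coupled myo-inositol carrier of the glucose transporter family. Its normalized counts in males were 258, 202, 378 and 272 in WT and 110, 100, 120 and 103 in AKO. The highest AKO library was well below the lowest WT library, and Slc2a13 fell, with a log2 fold change of -1.38 ± 0.18 (SE, edgeR adjusted p = 0.00134). In females the counts were 294, 226, 272 and 291 in WT and 148, 159, 151 and 168 in AKO. There too the groups did not overlap, and the log2 fold change was -0.79 ± 0.13 (SE, edgeR adjusted p = 0.0118). In perigonadal fat it was the solute carrier gene with the lowest log2 fold of the 46 listed in the authors' deposited table, -1.72 ± 0.18 (SE, adjusted p = 1.27e-19).

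Glucose carriers themselves were listed once each. Slc2a12, which encodes GLUT12, had 48.3, 51.3, 69 and 44.3 normalized counts in male inguinal WT and 75.8, 74, 94.8 and 89.4 in AKO libraries. All AKO libraries were above all WT libraries, and the log2 fold was 0.61 ± 0.17 (SE, edgeR adjusted p = 0.0753, and 0.0428 with the replicate block). Slc2a1, which encodes the widely expressed GLUT1, was higher in perigonadal fat by 0.27 ± 0.08 (SE, adjusted p = 0.0153) in the authors' deposited table.

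The other sodium-coupled carriers of family 5 were listed as lower. Slc5a6 encodes SMVT, which imports biotin, pantothenate and lipoate. Males had 1111, 804, 1062 and 853 normalized counts in WT and 717, 471, 401 and 621 in AKO, and females 1964, 2271, 1579 and 1941 in WT and 1012, 1253, 1455 and 1051 in AKO. The groups did not overlap in either set, and Slc5a6 fell in both, with log2 fold changes of -0.77 ± 0.17 (SE, edgeR adjusted p = 0.0283) and -0.70 ± 0.14 (SE, edgeR adjusted p = 0.0262). It overlaps Atraid on the other strand, which was not listed.

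Slc5a7, the high-affinity choline importer known from cholinergic neurons, was low in male inguinal fat, at 37.6, 8.73, 22.4 and 34.3 normalized counts in WT and 5.23, 5.16, 11.8 and 0.715 in AKO. That is 79 reads in all of WT and 27 in all of AKO, the groups overlapped, and the log2 fold change of -2.23 ± 0.58 (SE, edgeR adjusted p = 0.0546) did not pass the threshold. In the authors' deposited table for perigonadal fat it had a mean of 11.17 normalized counts and a log2 fold change of -1.34 ± 0.28 (SE, adjusted p = 6.42e-05). Slc5a8, a sodium-coupled carrier of lactate and short-chain fatty acids, had 237, 329, 137 and 361 normalized counts in female WT and 152, 108, 161 and 124 in female AKO libraries. The ranges overlapped, and the log2 fold change of -0.98 ± 0.27 (SE, edgeR adjusted p = 0.101) did not pass the threshold.

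The listed genes of family 37, a family named for sugar phosphate exchange, were higher. Slc37a3, a member at the endoplasmic reticulum and lysosome, rose in male inguinal fat (432 to 480 normalized counts in WT and 587 to 594 in AKO) by 0.35 ± 0.06 (SE, edgeR adjusted p = 0.00601). Slc37a2, known from macrophages, was higher in perigonadal fat by 0.55 ± 0.17 (SE, adjusted p = 0.0179) in the authors' deposited table, and its macrophage markers are given with Slc11a1 below.

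Mitochondrial carriers made up 10 of the 74 genes. Slc25a5 (ENSMUSG00000016319.3; chromosome X, 36795651 to 36798807, plus strand) and Slc25a4 (chromosome 8, 46206797 to 46211284, minus strand) encode ANT2 and ANT1, the carriers that exchange ADP for ATP across the inner membrane. Slc25a5 had 5530, 5075, 4947 and 5602 normalized counts in male WT and 8515, 6847, 7891 and 7151 in male AKO libraries, and rose by 0.52 ± 0.09 (SE, edgeR adjusted p = 0.00608). It had 8326, 10249, 8697 and 9439 in female WT and 13962, 14238, 16958 and 11792 in female AKO libraries, and rose by 0.63 ± 0.11 (SE, edgeR adjusted p = 0.0161). No AKO library fell within the WT range, and the authors' deposited table for perigonadal fat gave a rise of 0.70 ± 0.12 (SE, adjusted p = 1.07e-06).

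Slc25a4 had 3635, 2766, 3610 and 3775 normalized counts in male WT and 4784, 4091, 4577 and 4062 in male AKO libraries. The groups did not overlap although WT replicate 2 stood apart, and the log2 fold was 0.35 ± 0.10 (SE, edgeR adjusted p = 0.0886, and 0.0415 with the replicate block). Female libraries had 5261, 5787, 5722 and 6713 in WT and 9941, 8443, 9221 and 6902 in AKO, and Slc25a4 rose there by 0.55 ± 0.12 (SE, edgeR adjusted p = 0.0368), a call lost with TMM scaling (edgeR adjusted p = 0.07). The coding sequences of these 2 genes are close, so reads may have been divided between them.

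Carriers of coenzyme A and amino acids did not share a direction. Slc25a42, which imports coenzyme A into mitochondria, had 634, 432, 381 and 553 normalized counts in male WT and 372, 318, 295 and 368 in male AKO libraries. All AKO libraries were lower, with a log2 fold change of -0.53 ± 0.15 (SE, edgeR adjusted p = 0.0707, and 0.00743 with the replicate block), and the authors' deposited table for perigonadal fat gave -0.47 ± 0.10 (SE, adjusted p = 0.000151). Slc25a44, a mitochondrial carrier of branched-chain amino acids, had 2634, 2435, 2436 and 2549 in female WT and 3294, 3533, 3514 and 2765 in female AKO libraries. Its log2 fold was 0.38 ± 0.09 (SE, edgeR adjusted p = 0.0538) without overlap, and in the authors' deposited table for perigonadal fat it was 0.37 ± 0.11 (SE, adjusted p = 0.0124).

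The other mitochondrial members were listed in 1 adipose table each. In male inguinal fat Slc25a25, a carrier of ATP-magnesium and phosphate, rose (419 to 464 normalized counts in WT and 570 to 684 in AKO) by 0.51 ± 0.07 (SE, edgeR adjusted p = 0.00292). Slc25a22, a glutamate carrier, fell there (1626 to 1860 normalized counts in WT and 1189 to 1576 in AKO; log2 fold change -0.39 ± 0.09 (SE, edgeR adjusted p = 0.037)). In perigonadal fat the authors' deposited table listed Slc25a29, a carrier of basic amino acids, as higher by 0.72 ± 0.20 (SE, adjusted p = 0.00646). Slc25a48 was higher by 1.43 ± 0.29 (SE, adjusted p = 2.82e-05) at a mean of 37.51 normalized counts in that same authors' deposited table, and Slc25a17, a peroxisomal carrier of cofactors, was lower, at -0.26 ± 0.09 (SE, adjusted p = 0.0285).

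Among the ion carriers, Slc9a9, which encodes the endosomal sodium/proton exchanger NHE9, was higher in perigonadal fat by 0.28 ± 0.08 (SE, adjusted p = 0.00977) in the authors' deposited table.

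All 4 listed members of the cation-chloride family were higher wherever listed. Slc12a2, the sodium-potassium-chloride importer NKCC1, and Slc12a9 were higher in perigonadal fat by 0.66 ± 0.09 (SE, adjusted p = 3.18e-10) and 0.29 ± 0.09 (SE, adjusted p = 0.0103) in the authors' deposited table. Slc12a4, the potassium-chloride exporter KCC1, stood at 826 to 1042 normalized counts in WT and 1037 to 1234 in AKO in male inguinal fat, where its log2 fold was 0.29 ± 0.08 (SE, edgeR adjusted p = 0.0711, and 0.03 with the replicate block), and at 0.19 ± 0.06 (SE, adjusted p = 0.0161) in the authors' deposited table for perigonadal fat. Slc12a7, the exporter KCC4, stood at 1765 to 2173 normalized counts in WT and 2117 to 2746 in AKO in females, with a log2 fold of 0.35 ± 0.10 (SE, edgeR adjusted p = 0.125).

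The phosphate importers of family 20, PiT1 and PiT2, were listed in opposite directions in perigonadal fat, where the authors' deposited table gave Slc20a1 0.40 ± 0.13 (SE, adjusted p = 0.0314) and Slc20a2 -0.57 ± 0.11 (SE, adjusted p = 4.84e-06). Slc24a3, a potassium-dependent sodium/calcium exchanger, had 2104, 2014, 2251 and 2580 normalized counts in female WT and 3264, 3706, 3054 and 2867 in female AKO libraries. All AKO libraries were above all WT libraries, and Slc24a3 rose by 0.53 ± 0.10 (SE, edgeR adjusted p = 0.0269). Slc9a3r1, the scaffold protein NHERF1, stood at 722 to 1036 normalized counts in WT and 515 to 720 in AKO in females, with a log2 fold change of -0.50 ± 0.13 (SE, edgeR adjusted p = 0.0903).

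The 3 metal carriers were listed as higher. Slc11a1 (chromosome 1, 74375195 to 74386062, plus strand) encodes NRAMP1, which moves divalent metals out of the phagosomes of macrophages. Female libraries had 373, 425, 501 and 424 normalized counts in WT and 560, 701, 564 and 583 in AKO. All AKO libraries were above all WT libraries, with AKO replicate 2 apart from the rest, and the log2 fold was 0.48 ± 0.12 (SE, edgeR adjusted p = 0.0706). The authors' deposited table for perigonadal fat gave Slc11a1 a rise of 0.55 ± 0.16 (SE, adjusted p = 0.0123) and Slc40a1, the iron exporter ferroportin, a rise of 0.56 ± 0.13 (SE, adjusted p = 0.00063). Slc39a13, the zinc carrier ZIP13, stood at 948 to 1063 normalized counts in WT and 1108 to 1278 in AKO in females (log2 fold 0.23 ± 0.08 (SE, edgeR adjusted p = 0.236)) and at 0.28 ± 0.07 (SE, adjusted p = 0.00296) in the authors' deposited table for perigonadal fat.

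Macrophage markers were listed as higher in female inguinal and perigonadal fat, but not in male inguinal fat. There 1 of the 13 was listed, Cd14, and it was lower (349 to 441 normalized counts in WT and 255 to 338 in AKO). Besides Slc11a1, 5 of 13 macrophage markers were listed in females, all higher, and their summed normalized counts ran from 13900 to 17377 in WT and from 17450 to 24121 in AKO libraries. In perigonadal fat 4 of the 13 besides Slc11a1 were listed, all higher in the authors' deposited table (Atp6v0d2 at a log2 fold of 1.32, Cd68 at 0.58, Csf1r at 0.45 and Mrc1 at 0.38). No marker of that list was at 0 in any female library. Their part in the Slc11a1, Slc37a2 and Slc40a1 results was not tested.

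Families 13 and 16 had genes listed in both directions. In perigonadal fat the authors' deposited table gave Slc16a1, the lactate and ketone carrier MCT1, a log2 fold change of -0.53 ± 0.12 (SE, adjusted p = 0.000121). Slc16a6, a member of the same family, was higher by 0.94 ± 0.17 (SE, adjusted p = 2.01e-06), and the sulfate carrier Slc13a4 lower, at -0.69 ± 0.11 (SE, adjusted p = 7.32e-09), in the authors' deposited table. In male inguinal fat Slc16a10, which carries aromatic amino acids although it belongs to this family, fell (477 to 595 normalized counts in WT and 374 to 453 in AKO; log2 fold change -0.36 ± 0.09 (SE, edgeR adjusted p = 0.0447)). In females Slc16a12 stood at 217 to 346 normalized counts in WT and 138 to 218 in AKO, with overlap and a log2 fold change of -0.61 ± 0.19 (SE, edgeR adjusted p = 0.147).

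Nucleoside carriers were listed as higher in male fat. Slc29a1 encodes ENT1, the main equilibrative carrier of adenosine and other nucleosides. It had 891, 986, 920 and 894 normalized counts in male inguinal WT and 1269, 1238, 1115 and 1111 in AKO libraries. Its groups did not overlap, and it rose by 0.36 ± 0.07 (SE, edgeR adjusted p = 0.0107). The authors' deposited table for perigonadal fat gave Slc29a1 a rise of 0.57 ± 0.10 (SE, adjusted p = 2.29e-07) and Slc29a2, or ENT2, a rise of 0.56 ± 0.20 (SE, adjusted p = 0.0408).

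Among nucleotide sugar carriers of the Golgi and endoplasmic reticulum, Slc35b4 (promoter above) rose in male inguinal fat (552 to 620 normalized counts in WT and 721 to 755 in AKO) by 0.30 ± 0.06 (SE, edgeR adjusted p = 0.0135). Slc35c1, the GDP-fucose carrier, was higher in perigonadal fat by 0.36 ± 0.08 (SE, adjusted p = 0.00064) in the authors' deposited table. Slc35e3, of unknown substrate, had 196, 205, 166 and 207 normalized counts in male WT and 243, 243, 229 and 257 in male AKO libraries. Its groups did not overlap, its log2 fold was 0.34 ± 0.09 (SE, edgeR adjusted p = 0.0711), and the authors' deposited table for perigonadal fat gave 0.33 ± 0.10 (SE, adjusted p = 0.0171). Slc35f3 had 179, 173, 339 and 234 in female WT and 37.9, 67.9, 135 and 152 in female AKO libraries, a wide spread without overlap, and its log2 fold change of -1.24 ± 0.39 (SE, edgeR adjusted p = 0.166) did not pass the threshold.

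The folate carriers were listed in opposite directions. Slc46a1 encodes PCFT, the proton-coupled folate importer. It had 150, 153, 177 and 158 normalized counts in male WT and 117, 103, 100 and 119 in male AKO libraries, fell, with a log2 fold change of -0.54 ± 0.11 (SE, edgeR adjusted p = 0.0163), and stood at -0.79 ± 0.16 (SE, adjusted p = 2.01e-05) in the authors' deposited table for perigonadal fat. Slc19a1, the reduced folate carrier, stood at 350 to 518 normalized counts in WT and 518 to 733 in AKO in male inguinal fat, where its groups overlapped and its log2 fold was 0.50 ± 0.14 (SE, edgeR adjusted p = 0.0681). The thiamine carrier Slc19a3, at a mean of 38.64 normalized counts, and the lysosomal Slc46a3 were higher in perigonadal fat by 0.78 ± 0.22 (SE, adjusted p = 0.00792) and 0.39 ± 0.13 (SE, adjusted p = 0.0234) in the authors' deposited table.

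Of the choline-like family 44, Slc44a4 fell in females, from 314, 404, 330 and 332 normalized counts in WT to 108, 106, 173 and 198 in AKO libraries. The groups did not overlap, and the log2 fold change was -1.24 ± 0.21 (SE, edgeR adjusted p = 0.0139). Slc44a3 was lower in perigonadal fat, at -0.53 ± 0.08 (SE, adjusted p = 1.82e-08) in the authors' deposited table. Slc44a2 stood at 738 to 894 normalized counts in WT and 905 to 1049 in AKO in male inguinal fat, with a log2 fold of 0.25 ± 0.07 (SE, edgeR adjusted p = 0.0883). Epithelial or mammary markers were lower in the same female AKO libraries: 4 of 13 were listed (Krt8, Krt7, Csn3 and Cldn7), none at 0, and their summed normalized counts ran from 14087 to 18245 in WT and from 6066 to 9434 in AKO. In perigonadal fat 3 of the 13 were listed in the authors' deposited table. Krt7 and Krt14 were lower (-1.09 and -1.23), and Slc12a2, itself a member of the list, was higher (0.66). Progenitor or mesothelial markers were lower there as well, 4 of 10 in the authors' deposited table (Krt19 at -1.05, Lrrn4 at -0.91, Dpp4 at -0.46 and Cd55 at -0.42), while Lrrn4 alone of them was listed in the inguinal sets, higher (1.48 in males and 0.92 in females). The part of the progenitor or mesothelial markers in the 13 solute carrier genes lower in perigonadal fat was not tested, nor was that of the epithelial or mammary markers in the Slc44a4, Slc5a8, Slc9a3r1 and Slc44a3 results.

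Organic ion and urea carriers were few. In the authors' deposited table for perigonadal fat, the polyamine carrier Slc18b1 was lower, at -0.53 ± 0.11 (SE, adjusted p = 8.98e-05). The organic cation carrier Slc22a2, at a mean of 73.07 normalized counts, was higher by 0.69 ± 0.24 (SE, adjusted p = 0.0429), and Slc22a14, whose span overlaps Acaa1a and Xylb, by 0.57 ± 0.20 (SE, adjusted p = 0.0439), in the authors' deposited table. Slc14a1, the urea carrier UT-B, was higher by 0.66 ± 0.16 (SE, adjusted p = 0.000798) in the authors' deposited table for perigonadal fat. In females Slc22a23 fell (1161 to 1235 normalized counts in WT and 945 to 994 in AKO; log2 fold change -0.31 ± 0.07 (SE, edgeR adjusted p = 0.0431)).

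**Figure D3:**
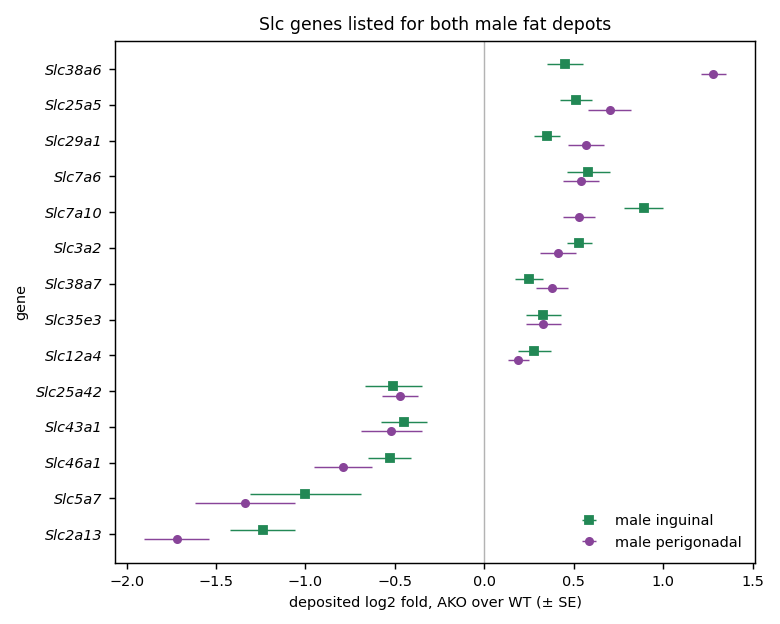
Deposited log2 fold change of AKO over WT (horizontal axis; whiskers are the authors' SE) of 14 of the 15 solute carrier genes listed for both fat depots of the males (vertical axis), with green squares for inguinal and purple circles for perigonadal fat. The 9 genes drawn as higher in one depot are higher in the other and the 5 drawn as lower likewise, with the widest gap at Slc38a6 (0.45 and 1.28).

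The depots of the same males shared 15 solute carrier genes, which is 50% of the 30 inguinal and 32.6% of the 46 perigonadal genes. In the authors' deposited tables the perigonadal log2 fold lay further from 0 than the inguinal one for Slc38a6 (1.28 and 0.45) and Slc2a13 (-1.72 and -1.24). It lay nearer to 0 for Slc7a10 (0.53 and 0.89). No perigonadal counts were used, so no difference between depots was tested. Listed in perigonadal fat alone were 28 of these genes (21 higher and 7 lower), in male inguinal fat alone 10 (7 and 3) and in female inguinal fat alone 9 (3 and 6). Neither these counts nor the 15 shared genes were set beside the same shares of all listed genes. Nothing about solute carriers as a group is therefore read from them.

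**Figure D4:**
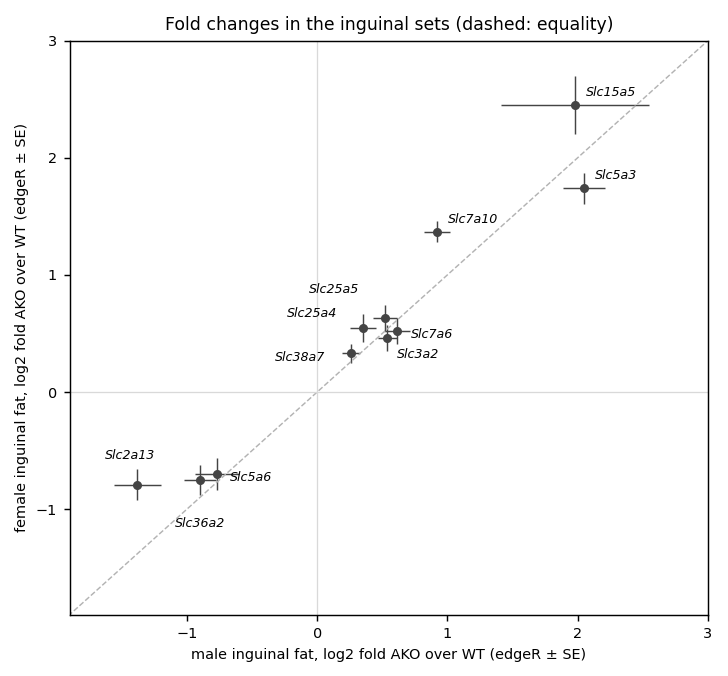
Log2 fold change of AKO over WT from edgeR in male (horizontal axis) and female (vertical axis) inguinal fat for 11 of the 12 genes listed in both sets; whiskers are SE, and the dashed line marks equal values. Slc7a10 lies above the line (0.92 and 1.37), and Slc2a13 lies above it as its fall was smaller in females (-1.38 and -0.79).

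Whether the inguinal response differed between the sets was tested for the 12 genes listed in both, with the set by genotype term of edgeR over the 290 genes shared by the tables. By edgeR no solute carrier gene passed the threshold, where 1.72% of the 290 genes did. An unadjusted edgeR p under 0.05 was found for 2 of the 12 and for 35 of the 290 genes, and DESeq2 called 0 of the 12. For Slc7a10 the female minus male difference in log2 fold was 0.44 (95% interval 0.13 to 0.76), with an edgeR adjusted p of 0.144. For Slc2a13 it was 0.59 (95% interval 0.12 to 1.06), with an edgeR adjusted p of 0.223. For Slc5a3 it was -0.31 (95% interval -0.76 to 0.14), and for Slc36a2 0.15 (95% interval -0.25 to 0.54). The interval was narrowest for Slc38a7, at 0.08 (95% interval -0.16 to 0.31), and widest for Slc15a5, at 0.46 (95% interval -0.93 to 1.86).

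The edgeR calls rested on 4 libraries a group, and leaving out 1 library at a time changed several. Of the 20 male calls, 13 were made in each of the 8 fits that left out 1 library, among them Slc7a10, Slc3a2, Slc7a6, Slc5a3, Slc2a13, Slc36a2, Slc1a3 and Slc25a5. Without AKO replicate 2 the male count was 13. Slc38a6 was lost without that library alone (edgeR adjusted p = 0.0529), and Slc46a1 without WT replicate 3, AKO replicate 2 or AKO replicate 3 (0.0513 to 0.0678). Slc1a4, Slc5a6, Slc43a1, Slc16a10 and Slc25a22 were lost in 5, 5, 6, 7 and 7 of the 8 fits, with edgeR adjusted p-values up to 0.143. Calls were gained for Slc25a42 and Slc2a12 without WT replicate 3 (0.0281 and 0.0337) and for Slc38a7 and Slc5a7 without WT replicate 2 (0.048 and 0.0216).

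Of the 13 female calls, 4 were made in each of the 8 fits: Slc7a10, Slc5a3, Slc2a13 and Slc15a5. The female count was 6 without WT replicate 1, 6 without WT replicate 2, 8 without WT replicate 3 and 7 without AKO replicate 1. Slc44a4 was lost without WT replicate 2 alone (edgeR adjusted p = 0.0545), Slc25a5 without WT replicate 1 or 3 (0.0636 and 0.0619), and Slc36a2 without WT replicate 1, WT replicate 3 or AKO replicate 1 (0.0503 to 0.0576). Slc5a6, Slc24a3, Slc7a6, Slc25a4 and Slc22a23 were lost in 5, 5, 5, 6 and 8 of the 8 fits, with edgeR adjusted p-values up to 0.155. Calls were gained for Slc12a7, Slc25a44 and Slc43a3 without AKO replicate 4 (0.0303, 0.00958 and 0.0223), Slc3a2 without AKO replicate 2 (0.0234), Slc5a8 without WT replicate 3 (0.0219) and Slc9a3r1 without WT replicate 4 (0.0477).

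**Figure D5:**
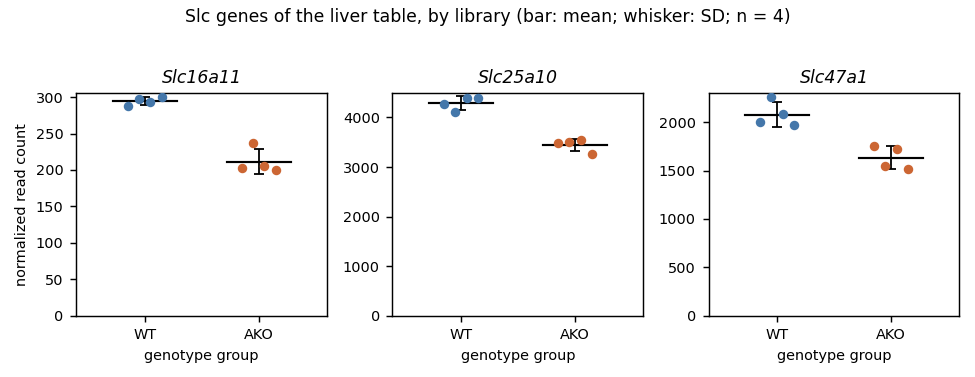
Normalized read count (vertical axis, from 0) of the 3 solute carrier genes with liver counts in each WT (blue) and AKO (orange) library; horizontal bars are means and whiskers the SD over 4 libraries. All AKO points lie below all WT points in the 3 panels, as they did not overlap for any gene with counts in the liver table.

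In liver, whose own Bcl6 the adipocyte Cre does not target, the 4 listed solute carrier genes were lower in AKO, and none was in an adipose table. Slc25a10 (chromosome 11, 120491840 to 120499187, plus strand) encodes the mitochondrial dicarboxylate carrier for malate and succinate. It had 4278, 4110, 4386 and 4403 normalized counts in WT and 3486, 3509, 3541 and 3269 in AKO livers, a log2 fold change of -0.32 ± 0.05 (SE, edgeR adjusted p = 0.185). Slc16a11 (chromosome 11, 70212752 to 70216417, plus strand), a monocarboxylate carrier of the liver, had 288, 297, 294 and 300 in WT and 203, 237, 206 and 200 in AKO livers, a log2 fold change of -0.48 ± 0.09 (SE, edgeR adjusted p = 0.222). Slc47a1 (chromosome 11, 61343401 to 61378345, minus strand) encodes MATE1, which exports organic cations into bile. It had 2004, 2263, 2088 and 1971 in WT and 1755, 1548, 1721 and 1513 in AKO livers, a log2 fold change of -0.35 ± 0.07 (SE, edgeR adjusted p = 0.425).

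The WT and AKO ranges did not overlap for these 3 genes, nor for any of the 34 liver genes with counts (100%). By edgeR 0 of the 3 were called, where 8.82% of the 34 genes with counts were called, or 0.0262% of the genes the authors tested. All 3 had an unadjusted edgeR p under 0.05, and DESeq2 called 2. The authors' calls on the same samples had placed these genes in the table, so neither count is separate support. Without AKO replicate 4, whose labels disagree, the log2 fold changes were -0.29, -0.45 and -0.31 for Slc25a10, Slc16a11 and Slc47a1, with 0 edgeR calls. For Slc6a9, the glycine carrier GlyT1, no liver counts were used, and the authors' deposited table gave -0.42 ± 0.10 (SE, adjusted p = 0.0113).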

How the data were processed

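Per the labels' protocols, Trizol and RNeasy columns yielded the RNA, and libraries were made with the TruSeq Stranded mRNA kit. STAR, DESeq2 and mm10 are named in the submitters' processing notes. Their versions, the read counter, its annotation and strand setting were not given in the sources used here. Overlapping and near-identical genes may therefore share reads. For 24 samples the authors deposited read counts, whole numbers without normalization. Per the file headers, the authors' deposited tables of comparisons give each gene's mean normalized count (a signal on the scale of counts), its log2 fold change with SE and its adjusted p-value, with the plain p-value for the 3 adipose comparisons. All hold only genes with an adjusted p under 0.05. The sign of the perigonadal fold is taken as AKO over WT, as in the other 3 tables, where the counts bear it out. Replicate 4 of the AKO livers has a description that speaks of WT perigonadal fat; its title was followed. Repeated lines (3) of the liver counts were left out.

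Size factors of the authors were recovered from counts and deposited means by least squares (largest misfit 0.298%, in liver) and used as offsets. WT and AKO were tested with edgeR 4.0.16 (quasi-likelihood, legacy mode) in R 4.3.3 within each table, without filter or covariate, adjusted by Benjamini-Hochberg over the 12554, 13546 and 11441 genes the authors tested (male inguinal, female inguinal and, as an estimate, liver), with a threshold of 0.05. As the tables hold called genes only, the spread was estimated on these, and the tests are not independent of the listing. SE was derived from the fold and the F statistic. On simulated counts with a true log2 fold of 1 (0.5), 99% (39.6%) of changed genes were recovered for male inguinal fat, 99% (45.1%) for female inguinal fat, 100% (27.3%) for liver and 96.2% (39.6%) for the difference between the inguinal sets, on 1074, 790, 34 and 290 genes. The simulation gave every gene the same spread relative to its mean, beyond counting noise, unlike the real genes. Its shares therefore do not carry over to genes with a wide spread between libraries.

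Each sample is labelled as a separate animal within its group, and p-values measure the spread between these 4 animals. Same-numbered male inguinal samples deviated together (correlations 0.13 to 0.37, each over 0.1), though replicate 2 had 0.22 beside up to 0.20 with other numbers. In females and liver same-numbered samples did not deviate together (-0.25 to 0.10 and -0.58 to -0.08). The main edgeR tests did not use this pairing. With the replicate block edgeR called 25 male genes instead of 20, and for males the blocked edgeR p is given where the block changes a call. All of these male changes were gains, while in females the block called 4 genes instead of 13. Alternatives were TMM, the table total as library size, DESeq2 1.42.0, a mean of at least 50, the replicate block and leaving out each library. TMM and the table total were computed from the listed genes alone, so calls lost or gained with them may reflect that choice of genes. The members, families, marker lists and lists of other transport genes were chosen with earlier results of these data known. Values per library are given for the 20 of the 23 genes in at least 2 tables with the largest mean deposited fold and for the 6 largest rises and falls per table where the deposited mean reached 50; others are given as ranges. Slc38a7, outside that rule, was given per library since it is listed in all 3 adipose tables. Values of 1 of the 74 genes, which the counts include, are not reported here. Positions are from GENCODE M21 (GRCm38), which placed all 74 genes, and promoters from RefSeq (GRCm38.p6). Figures were drawn with matplotlib 3.10.9.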

Additional observations from a re-analysis of the deposited data

Results flagged for a closer look

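In 4 of the 114 groups of 4 libraries tested, the highest or lowest library stood apart from the other 3 by more than Dixon's 95% limit for the gap as a share of the range. Chance gives about 1 in 20 such groups. The normalized count of Slc25a4 was 2766 in male inguinal WT replicate 2, while the other 3 libraries held 3610 to 3775. Slc5a3 stood at 5516 in male inguinal AKO replicate 3, beside 3985 to 4168 in the other AKO libraries. Slc11a1 stood at 701 in female inguinal AKO replicate 2, beside 560 to 583. Slc16a11 stood at 237 in liver AKO replicate 2, beside 200 to 206. In each case the library lay on its own group's side of the other genotype.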

How the results depend on the processing

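By edgeR the male inguinal count of 20 calls was 21 with TMM, 23 with the table total as library size, 29 with DESeq2, 19 with a mean of at least 50 and 13 to 19 when 1 library was left out, and with the replicate block it was 25. The female count of 13 was 12 with TMM and with the table total, 13 with the filter, 23 with DESeq2 and 6 to 15 when 1 library was left out. With the replicate block it was 4, but female numbers share only a number, as no library correlated best with its own. In liver 0 genes were called in each fit except the table total (1) and DESeq2 (2). The liver log2 fold of Slc25a10 was 0.00 with TMM, which moved the median of the 34 liver genes with counts by 0.32. TMM was computed from these genes alone, all of them called different by the authors. For the difference between inguinal sets, each alternative, the replicate block included, called 0. Of the 46 perigonadal genes 31 passed an adjusted p of 0.01 in the authors' deposited table, and 15 changed at least 1.5-fold (9 higher and 6 lower). No male or female log2 fold of a named gene changed direction. Calls lost outside the block and single libraries were Slc24a3, Slc25a4, Slc25a5 and Slc7a6 in females with the table total (edgeR adjusted p = 0.159, 0.19, 0.0718 and 0.331), the second and last of these also with TMM, and Slc16a10 in males with the table total or the filter (0.0806 and 0.0501). Calls gained with TMM and with the table total were Slc5a7 in males (edgeR adjusted p = 0.0464 and 0.0447) and Slc9a3r1 in females (0.0439 and 0.0272). The table total alone gained Slc12a4, Slc19a1 and Slc25a4 in males (0.0229, 0.036 and 0.0326) and Slc16a12 and Slc5a8 in females (0.0361 and 0.0405). DESeq2 gained 9 male and 10 female calls, all of these among them. The cause of these changes was not tested.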

Other observations

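Transport genes outside the Slc symbols were looked up in lists chosen with earlier results known. All values here are log2 folds of AKO over WT from the authors' deposited tables, and these genes were listed only because they passed the authors' threshold. Of all genes tested, the authors called 8.56% in male inguinal, 5.83% in female inguinal and 11.1% in perigonadal fat, and 0.323% in liver. Nothing is read from the counts per list against these shares. Mfsd7c, also known as Flvcr2, a major facilitator protein of a haem and choline carrier family, had the largest rises of these lists: 3.86 ± 0.15 in male inguinal, 2.65 ± 0.14 in female inguinal and 3.06 ± 0.18 in perigonadal fat (SE). Its relative Mfsd7a was higher in all 3 as well (0.75, 0.47 and 0.85). Of 23 major facilitator genes, 2 were listed in male inguinal, 3 in female inguinal and 2 in perigonadal fat, and Mfsd12, lower in females at -0.53, was the other one.

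Of 11 partners of solute carriers and of iron transport, 5 were listed in male inguinal (2 higher and 3 lower), 4 in female inguinal (2 and 2) and 3 in perigonadal fat (1 and 2). Ahcyl2, a regulator of bicarbonate cotransporters, was higher (1.02, 0.92 and 0.53 in male inguinal, female inguinal and perigonadal fat). Tfr2, the second transferrin receptor, was lower (-1.30, -1.26 and -1.61), as was Trf, transferrin (-0.67, -0.40 and -1.10), while Tfrc was higher in both inguinal sets (0.43 and 0.54). Aspscr1, a tether of glucose transporter vesicles, was lower in male inguinal fat (-0.21). Of 11 aquaporins, none was listed in male inguinal fat, 1 in female inguinal fat, 3 in perigonadal fat (2 higher and 1 lower) and 1 in liver (lower). Aqp2 was higher in female inguinal (1.21) and perigonadal fat (1.15), at means of 34.73 and 15.56 normalized counts. Aqp1 was higher (0.25) and Aqp5 lower (-0.77) in perigonadal fat, and Aqp4 was lower in liver (-0.86). Of 50 ABC transporters, 3 were listed in each inguinal set and 1 each in perigonadal fat and liver, with Abcb1b higher in both inguinal sets (0.45 and 0.40). Of 48 ion-pumping ATPases, 5 were listed in male inguinal (3 higher and 2 lower), 3 in female inguinal (all higher) and 8 in perigonadal fat (4 and 4). Genes of the proton pump went both ways: Atp6v1g1 and Atp6v1h were lower in both male depots (-0.42 and -0.43, -0.29 and -0.30) and Atp6v0a4 in perigonadal fat (-0.98), while Atp6v0a1 was higher in male inguinal fat (0.35), Atp6v0e2 and Atp6v0d2 in female inguinal fat (0.50 and 0.79), and Atp6v0d2 and Atp6ap2 in perigonadal fat (1.32 and 0.22). Of 14 organic anion transporting polypeptides, Slco2a1 alone was listed, lower in females at -0.55.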
